A study of Mus musculus with 2 samples.

Results

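Endothelial and pericyte genes were followed in 2 areas of the mouse brain before birth, the subventricular zone (SVZ) and the cortex. The set held 36 of the 24411 genes counted, chosen by name: 30 genes of endothelial cells, which line the vessels, or of the signals that act on them, and 6 genes of pericytes, the mural cells wrapped around capillaries. Membership was decided by the gene symbol, with no threshold on a measured value. Both areas were cut by laser capture microdissection (LCM) from fresh-frozen, haematoxylin and eosin stained sections at embryonic day 16.5 and profiled by bulk RNA-seq, with 1 library for each area. Neither group carried a named treatment or allele, and the strain, the number of embryos and the number of sections behind each library were not given in the labels or methods.

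The brain makes no endothelial cells of its own. Vessels sprout inward from a plexus on the surface, led by tip cells that follow VEGF released by neural cells, and Wnt ligands from the same neural cells switch on the tight junctions and transporters of the blood-brain barrier. Pericytes are recruited by PDGF-B from the endothelium and anchor to the new capillaries. Both a germinal zone and the cortex hold vessels among their many neural cells.

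Levels are given as CPM, a gene's reads scaled to a total of 1000000 gene-assigned reads. The SVZ library held 51435667 such reads and the cortex library 22050693, so that 1 read stood for 0.0194 and 0.0454 CPM. Differences are log2 ratios of CPM, SVZ over cortex, and the range in brackets after each is an exact 95% interval (Clopper-Pearson) of the counts. It covers counting error only. The counts are of reads, which need not stand for separate molecules, and with 1 library per area there is no replicate and no test, so each difference is one between these libraries. In bulk tissue, fewer vessel cells and less RNA in each of them cannot be told apart. Markers of the main neural cells are described beside the vascular genes. They were listed with earlier results of these data known, so they are no independent check of the dissection. All 8 progenitor genes listed were 2-fold or more higher in the SVZ, with a sum of 6646 CPM against 121 CPM. Pax6 and Eomes among them reached 1 CPM only in the SVZ. Of 8 neuronal genes, 7 were 2-fold or more higher in the cortex, with 2886 CPM against 8245 CPM. Of all genes averaging 1 CPM or more, 20.0% and 15.6% lay past 2-fold on these sides.

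Vascular transcripts were read in both areas at low and, for most genes, similar levels. The 36 genes together took 0.0572% of gene-assigned reads in the SVZ (0.0565 to 0.0578) and 0.0359% in the cortex (0.0351 to 0.0367). None was at 0 reads in either library. An average level of 1 CPM or more was reached by 29 of the 36, and Robo4, Vegfa, Sox18, Erg, Ly6c1, Nos3 and Anpep stayed below it. Of the 29, 22 lay within 2-fold, 5 were 2-fold or more higher in the SVZ (Slco1c1, Abcb1a, Angpt2, Vtn and Mfsd2a) and 2 were 2-fold or more higher in the cortex (Plvap and Flt1). The same rule called 20.0% of all 12738 genes at this level on the SVZ side, 15.6% on the cortex side and 35.6% in all, against 7 of the 29 vascular genes. The SVZ level was the higher for 21 of the 29, against 54.9% of all genes, and the counting interval left out a ratio of 0 for 23 of the 29, against 86.8%. Cd34 and Tek, among those 21, moved to the cortex side under TMM scaling and DESeq2 size factors. At 4-fold, Slco1c1 and Abcb1a remained on the SVZ side (10.2% of all genes) and Plvap on the cortex side (7.01%). The same 3 genes had their whole interval past 2-fold, where the shares of all genes were 16.1% and 12.9%. Of the 10 vascular genes averaging 10 CPM or more, Slco1c1 and Mfsd2a were past 2-fold towards the SVZ (14.9% of all genes) and none towards the cortex (12.3%). With no minimum, Robo4 and Erg joined the SVZ side (7 of 36, against 23.0% of all genes) and Sox18 the cortex side (3 of 36, against 18.2%). The median log2 ratio was 0.37 over the 29 genes and 0.11 over all genes tested. Angpt2, Abcb1a and Plvap passed the minimum through 1 library alone, the one in which they were higher. The other 26 reached 1 CPM in both libraries, and 4 of these were past 2-fold.

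**Figure D1:**
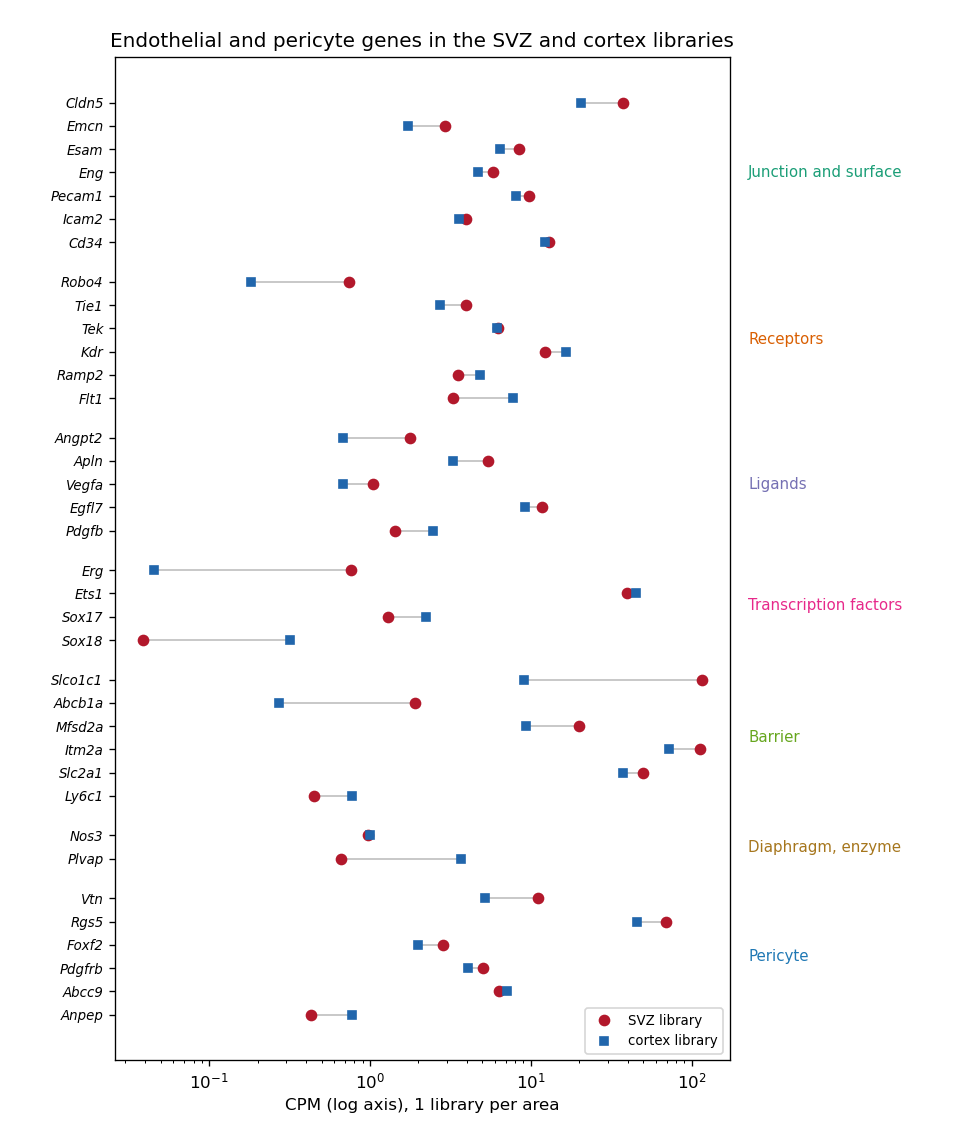
CPM of each of the 36 genes in the SVZ (circles) and cortex (squares) on a log axis, grouped by role, with 1 library per area. Most pairs of points lie close together, whereas Slco1c1 (115 against 9.07 CPM) and Plvap (0.661 against 3.67 CPM) are far apart in opposite directions.

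Promoter sequences are shown for 4 genes from both sides: Slco1c1 and Mfsd2a, transporters past 2-fold on the SVZ side, Cldn5, a junction gene just within 2-fold, and Flt1, a receptor past 2-fold on the cortex side. Each is the stretch of 250 bases that ends just before the RefSeq start site, read 5′ to 3′ on the gene's strand (GRCm38.p6). They lie at chr6:141524104-141524353 (plus strand), chr4:122961189-122961438 (minus strand), chr16:18776597-18776846 (plus strand) and chr5:147726012-147726261 (minus strand), in the same order. Capitals mark matches on either strand. The motifs were ACGTG, the core of the hypoxia response element, CGGAAG, an ETS factor core with flanking bases, and ACAATG, a SOX factor core. ETS cores without these flanking bases were not marked or counted.
Slco1c1: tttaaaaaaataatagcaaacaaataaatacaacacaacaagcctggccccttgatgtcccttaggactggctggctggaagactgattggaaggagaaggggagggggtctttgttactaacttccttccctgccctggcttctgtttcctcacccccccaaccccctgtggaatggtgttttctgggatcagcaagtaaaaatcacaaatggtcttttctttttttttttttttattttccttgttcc
Mfsd2a: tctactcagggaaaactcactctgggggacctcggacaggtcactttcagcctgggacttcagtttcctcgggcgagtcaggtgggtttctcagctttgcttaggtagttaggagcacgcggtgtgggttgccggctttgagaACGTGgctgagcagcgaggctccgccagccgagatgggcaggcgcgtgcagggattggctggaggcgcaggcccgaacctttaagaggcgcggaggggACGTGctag
Cldn5: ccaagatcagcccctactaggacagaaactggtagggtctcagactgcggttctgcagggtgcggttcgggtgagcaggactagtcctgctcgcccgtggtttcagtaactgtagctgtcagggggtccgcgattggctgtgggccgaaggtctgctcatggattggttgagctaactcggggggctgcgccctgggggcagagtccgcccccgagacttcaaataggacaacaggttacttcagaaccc
Flt1: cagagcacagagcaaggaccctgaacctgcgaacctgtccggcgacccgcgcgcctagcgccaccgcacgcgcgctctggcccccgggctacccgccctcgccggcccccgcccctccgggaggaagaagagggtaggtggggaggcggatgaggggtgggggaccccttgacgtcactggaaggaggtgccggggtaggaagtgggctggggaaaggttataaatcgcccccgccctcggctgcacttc
The window of Slco1c1 had 42.8% G and C and no CG pair, whereas that of Flt1 had 70.4% and 23 CG pairs. Mfsd2a (61.6%, 17 pairs) and Cldn5 (59.6%, 12 pairs) lay between them, and the median over the 32851 RefSeq promoters was 52.4%. Mfsd2a held ACGTG 107 and 9 bases before its start. RefSeq promoters were found for 24 of the 36 genes, with 30 start sites. ACGTG was present for Mfsd2a, Slc2a1 and Vegfa, CGGAAG for Tie1 alone and ACAATG for Erg alone, against 16.6%, 13.6% and 10.7% of all promoters. These are matches of letters, and say nothing of binding.

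Junction and surface genes, the usual markers of endothelial cells, were read in both areas within 2-fold of each other. The SVZ level was the higher in all 7, against 54.9% of all genes averaging 1 CPM or more, of which 35.6% lay past 2-fold. Cd34 changed side under TMM scaling and DESeq2 size factors, however, and Icam2 with the SVZ reads thinned to the cortex total. Cldn5 (chromosome 16, 18776847 to 18778262, with this and all gene positions on GRCm38), a claudin that seals the tight junctions of brain endothelium, had 1921 reads in the SVZ and 450 in the cortex, or 37.3 and 20.4 CPM. Its log2 ratio of 0.87 (0.72 to 1.02) was the largest of the group. Emcn, endomucin, a sialomucin of capillaries and veins, had 150 and 38 reads (2.92 and 1.72 CPM) and a ratio of 0.76 (0.24 to 1.31). Esam, an adhesion molecule of endothelial junctions, had 434 and 142 reads (8.44 and 6.44 CPM) and a ratio of 0.39 (0.11 to 0.67). For the remaining members the areas were closer still. Pecam1 (chromosome 11, 106654217 to 106750628), which encodes the adhesion molecule CD31, had 501 and 179 reads, or 9.74 and 8.12 CPM, and a ratio of 0.26 (0.01 to 0.52). Eng, a co-receptor for ligands of the TGF-beta family, had 298 and 103 reads (5.79 and 4.67 CPM) with a ratio of 0.31 (-0.02 to 0.65). Icam2, an adhesion molecule for leukocytes, had 203 and 79 reads (3.95 and 3.58 CPM) with a ratio of 0.14 (-0.24 to 0.53). Cd34, a sialomucin of endothelium and blood progenitors, had 672 and 272 reads (13.1 and 12.3 CPM) with a ratio of 0.08 (-0.12 to 0.29). A difference in Eng, Icam2 or Cd34 was thus not detectable at this depth. That in Pecam1 depended on the scaling, since its lower bound was smaller than the size of the shift under TMM scaling (-0.093). Cd34 and Eng gained reads when the columns for each strand were summed, 60 and 37 for Cd34 and 15 and 16 for Eng, so their levels are less certain.

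The receptors were divided, with Flt1, Kdr and Ramp2 higher in the cortex and Tie1 and Robo4 higher in the SVZ. Flt1 (chromosome 5, 147561604 to 147726011) encodes a VEGF receptor that also acts as a decoy for the ligand. It had 168 reads in the SVZ and 172 in the much shallower cortex library, or 3.27 and 7.80 CPM, a log2 ratio of -1.26 (-1.57 to -0.94). Kdr (chromosome 5, 75932827 to 75978458), the main signalling receptor for VEGF, had 627 and 367 reads, or 12.2 and 16.6 CPM, and a ratio of -0.45 (-0.64 to -0.26). Both intervals lay below 0. The remaining VEGF receptor, Flt4, counted here with the further signalling genes, lay on the other side, with 150 and 24 reads (2.92 and 1.09 CPM) and a ratio of 1.42 (0.79 to 2.11). Ramp2, which pairs with the calcitonin receptor-like receptor to bind adrenomedullin, had 181 and 107 reads (3.52 and 4.85 CPM) and a ratio of -0.46 (-0.82 to -0.10). The angiopoietin receptors did not share that direction. Tek, or Tie2, had 320 and 135 reads (6.22 and 6.12 CPM) and a ratio of 0.02 (-0.27 to 0.32), with the sign changing under TMM scaling, thinning, DESeq2 size factors and a total that left out the 10 genes with most reads. Its partner Tie1 had 203 and 60 reads (3.95 and 2.72 CPM) and a ratio of 0.54 (0.11 to 0.98). Robo4, an endothelial member of the roundabout family, rested on 38 and 4 reads (0.739 and 0.181 CPM), a ratio of 2.03 with a wide interval (0.55 to 3.97).

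Of the ligands, Angpt2 was the one past 2-fold. Angpt2 (chromosome 8, 18690263 to 18741562), an angiopoietin released by sprouting endothelium that competes for Tek, had 91 reads in the SVZ and 15 in the cortex, or 1.77 and 0.680 CPM, and a log2 ratio of 1.38 (0.58 to 2.27). Apln, the peptide apelin made by tip cells, had 279 and 72 reads (5.42 and 3.27 CPM) and a ratio of 0.73 (0.35 to 1.13). Egfl7, a secreted protein of growing vessels, had 607 and 202 reads (11.8 and 9.16 CPM) and a ratio of 0.37 (0.13 to 0.60). Pdgfb, the ligand that recruits pericytes, was on the other side. It had 74 and 54 reads (1.44 and 2.45 CPM) and a ratio of -0.77 (-1.29 to -0.23). Vegfa, the growth factor that neural cells send to vessels, was barely read, with 54 reads in the SVZ and 15 in the cortex (1.05 and 0.680 CPM). Its interval of -0.22 to 1.56 around 0.63 spanned 0, so neither area can be placed above the other.

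**Figure D2:**
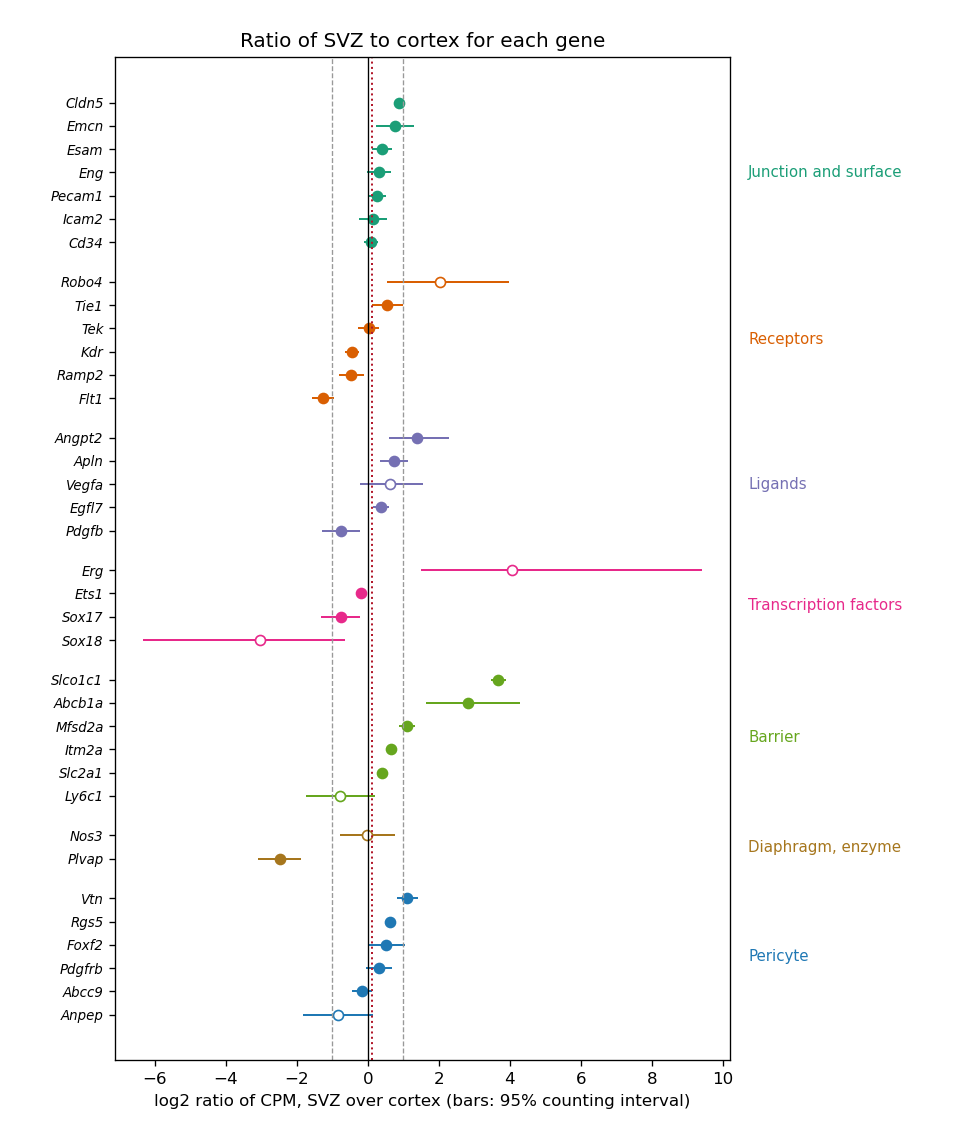
Log2 ratio of CPM, SVZ over cortex, for each gene by role, with bars for the 95% counting interval. Open symbols mark the 7 genes with a mean under 1 CPM, dashed lines mark 2-fold, and the dotted line is the median of all genes tested (0.11). Junction and surface genes sit in a narrow band above 0, while barrier genes reach 3.67 and Plvap lies at -2.47.

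The transcription factors of endothelium were unevenly covered. Ets1 (chromosome 9, 32636221 to 32757820), an ETS factor that cells other than endothelium also express, had 2029 and 1000 reads, or 39.4 and 45.4 CPM, a log2 ratio of -0.20 (-0.31 to -0.09), and made up 94.9% of the reads of this group in the SVZ and 94.6% in the cortex. Sox17, a SOX factor of arterial endothelium, had 67 and 49 reads (1.30 and 2.22 CPM) and a ratio of -0.77 (-1.32 to -0.21). The rest were too low to compare closely. Sox18, a close relative of Sox17, had 2 reads in the SVZ and 7 in the cortex, a ratio of -3.03 with an interval from -6.33 to -0.64. Erg, an ETS factor that maintains endothelial identity, had 39 reads in the SVZ and 1 in the cortex, a ratio of 4.06 with an interval from 1.50 to 9.40. With 1 CPM added to each level, these became -0.34 and 0.75.

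Among the genes of the set averaging 1 CPM or more, Slco1c1 and Abcb1a of the blood-brain barrier lay furthest towards the SVZ. All 5 barrier genes at that level were higher in the SVZ, 3 of them past 2-fold, against 54.9% and 20.0% of all genes, and Abcb1a reached 1 CPM only in the SVZ. Slco1c1 (chromosome 6, 141524368 to 141570177) encodes a thyroid hormone and organic anion transporter of brain capillaries that the choroid plexus epithelium also makes. It had 5936 reads in the SVZ and 200 in the cortex, or 115 and 9.07 CPM, a log2 ratio of 3.67 (3.47 to 3.88) and a fold of 12.7. Abcb1a (chromosome 5, 8660077 to 8748575), the efflux pump P-glycoprotein, had 98 and 6 reads (1.91 and 0.272 CPM), a ratio of 2.81 (1.63 to 4.29). Reads it shares with its close copy Abcb1b may have been set aside as multimapping, so its level is uncertain. Mfsd2a (chromosome 4, 122946850 to 122961188), a lipid transporter that holds back transcytosis at the barrier, had 1027 and 206 reads (20.0 and 9.34 CPM), a ratio of 1.10 (0.88 to 1.32). Within 2-fold were the 2 remaining genes of the 5. Itm2a, a membrane protein found in brain endothelium and in other cells, had 5819 and 1599 reads (113 and 72.5 CPM), a ratio of 0.64 (0.56 to 0.72). Slc2a1 (chromosome 4, 119108711 to 119137983), the glucose transporter of the barrier, which glia and other cells also carry, had 2548 and 830 reads (49.5 and 37.6 CPM), a ratio of 0.40 (0.28 to 0.51). Ly6c1, a surface antigen of capillaries with a near-identical neighbour gene, had only 23 and 17 reads (0.447 and 0.771 CPM), with an interval (-1.75 to 0.21) that spanned 0.

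Beside Slco1c1, markers of the choroid plexus also lay on the SVZ side. The 6 choroid plexus genes listed summed to 246 CPM in the SVZ and 0.907 CPM in the cortex. Ttr, transthyretin, which carries thyroid hormone, gave 97.6% of those SVZ reads, with 240 against 0.726 CPM. Folr1, Kl, Clic6 and Kcne2 were at 0 in the cortex, and Kl was at 0 in both. The part of choroid plexus, or of the neural progenitors whose sum is given above, in the level of Slco1c1 was not tested.

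The diaphragm gene Plvap was the furthest of the set towards the cortex among genes averaging 1 CPM or more. Plvap (chromosome 8, 71497765 to 71511752) encodes the protein of endothelial diaphragms, and brain endothelium loses it as the barrier matures. It had 34 reads in the SVZ and 81 in the cortex, or 0.661 and 3.67 CPM, a log2 ratio of -2.47 (-3.10 to -1.88), which is 5.56-fold higher in the cortex. Meningeal and fibroblast genes were compared because vessels outside the brain tissue keep Plvap. The 7 listed summed to 4.53 CPM in the SVZ and 8.93 CPM in the cortex. Of these, 4 averaged 1 CPM or more. Col3a1 (0.331 against 3.08 CPM) and Lum (0.583 against 1.81 CPM) were 2-fold or more higher in the cortex (15.6% of all genes). Each reached 1 CPM only in the cortex, the side on which it was called. Col1a1 had 0 and 2 reads, Aldh1a2 was at 0 in both, and Col1a2 (1.87 against 1.45 CPM) and Dcn (1.21 against 2.36 CPM) were within 2-fold. Slc6a13 lay the other way, with 28 and 3 reads (0.544 and 0.136 CPM), a ratio of 2.00 (0.31 to 4.36). Choroid plexus genes, given above, lay on the SVZ side. The part of meningeal or choroid plexus vessels in the level of Plvap was not tested. Nos3, the nitric oxide synthase of endothelium, had 50 and 22 reads (0.972 and 0.998 CPM), a ratio of -0.04 (-0.79 to 0.76). It took up 31 further reads in the SVZ and 7 in the cortex when the stranded columns were summed, which turned its ratio to 0.26.

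Of the 6 pericyte genes, 3 were higher in the SVZ with an interval above 0 and 3 had intervals that spanned 0. Of the 5 pericyte genes averaging 1 CPM or more, 3 had an interval that left out 0, against 86.8% of all genes at that level. Rgs5 (chromosome 1, 169655501 to 169695813), a regulator of G-protein signalling and the most read pericyte gene, had 3581 and 1003 reads, or 69.6 and 45.5 CPM, a log2 ratio of 0.61 (0.51 to 0.72). Vtn (chromosome 11, 78499091 to 78502324), vitronectin, a matrix protein that brain pericytes secrete, had 570 and 114 reads (11.1 and 5.17 CPM), a ratio of 1.10 (0.81 to 1.40), and was the pericyte gene past 2-fold. Foxf2, a forkhead factor of brain pericytes, had 147 and 44 reads (2.86 and 2.00 CPM), a ratio of 0.52 (0.02 to 1.04). Its lower bound was smaller than the size of the shift under TMM scaling (-0.093), so its place above 0 depends on the scaling. The other 3 were not separated by their counts. Pdgfrb, the receptor for PDGF-B, had 260 and 90 reads (5.05 and 4.08 CPM), a ratio of 0.31 (-0.04 to 0.67). Abcc9, a subunit of an ATP-sensitive potassium channel, had 325 and 156 reads (6.32 and 7.07 CPM), a ratio of -0.16 (-0.44 to 0.12). Anpep, aminopeptidase N or CD13, had 22 and 17 reads (0.428 and 0.771 CPM), a ratio of -0.85 (-1.83 to 0.15).

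Sums over each cell type were then set side by side. The 6 pericyte genes summed to 95.4 CPM in the SVZ and 64.6 CPM in the cortex, a log2 ratio of 0.56 (0.48 to 0.65), of which Rgs5 alone gave 73.0% and 70.4%. Without Rgs5 the ratio was 0.43. The 30 endothelial genes summed to 476 and 294 CPM, a ratio of 0.70 (0.66 to 0.74). The members with the most reads over both libraries were Itm2a, Slco1c1, Slc2a1 and Ets1, which held 66.7% of it in the SVZ and 56.0% in the cortex. The 26 endothelial genes left without them summed to 159 and 129 CPM, a ratio of 0.29 (0.23 to 0.36). The same 4 also had the highest mean CPM of the endothelial genes, from 92.8 for Itm2a to 42.4 for Ets1. In the cortex alone, however, Cldn5, Kdr, Cd34, Mfsd2a and Egfl7 had more reads than Slco1c1. Without the 4 genes most read in the cortex (Itm2a, Ets1, Slc2a1 and Cldn5) the sums were 237 and 118 CPM, a ratio of 1.00 (0.94 to 1.06), and without Slco1c1 alone they were 361 and 285 CPM, a ratio of 0.34 (0.30 to 0.38). The size of the endothelial ratio thus depended on whether Slco1c1 was counted. The share of pericyte reads among the reads of all 36 genes was 16.7% (16.3 to 17.1) in the SVZ and 18.0% (17.2 to 18.9) in the cortex. Without Slco1c1 the order turned, to 20.9% (20.4 to 21.4) and 18.5% (17.6 to 19.4).

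Levels of different genes were compared per length, as CPM per kilobase of the longest annotated transcript. Itm2a ranked first in both libraries, with 64.9 CPM per kilobase in the SVZ and 41.6 in the cortex. Cldn5 ranked 3 in the SVZ with 26.4 CPM per kilobase and 2 in the cortex with 14.4. Rgs5 ranked 4 in both. Some genes held different ranks in the areas. Slco1c1 ranked 2 of 36 in the SVZ (36.3 CPM per kilobase) and 12 in the cortex (2.85), while Plvap ranked 30 in the SVZ (0.333) and 16 in the cortex (1.85).

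**Figure D3:**
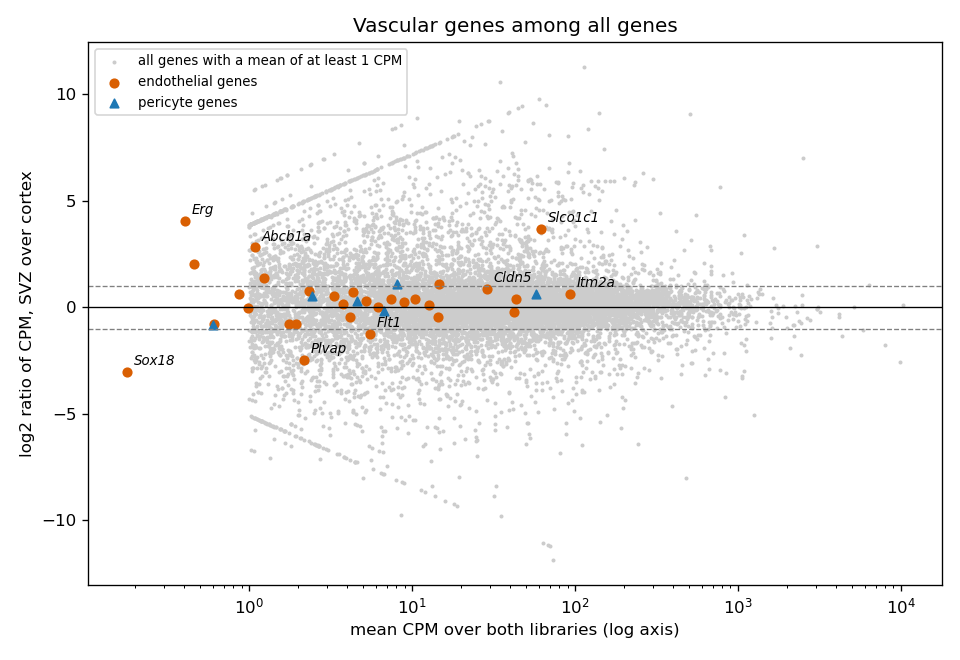
Mean CPM over both libraries (log axis) against the log2 ratio of CPM, SVZ over cortex, for all 12738 genes averaging 1 CPM or more (grey), the 30 endothelial genes (circles) and the 6 pericyte genes (triangles). Dashed lines mark 2-fold. Past 2-fold and above 1 CPM lie 7 vascular genes, Slco1c1 among the higher expressed.

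Other genes of the same pathways, not among the 36, were counted by the same rule. Of 18 further endothelial genes, 16 averaged 1 CPM or more, with a median log2 ratio of 0.21. Of the 16, 5 were 2-fold or more higher in the SVZ (20.0% of all genes at this level) and 0 in the cortex (15.6%). Among these 5, Cgnl1 and Clec14a reached 1 CPM only in the SVZ. Ratios of the 16 ran from -0.85 to 4.20. Of the 4 most read, Cd93 (15.2 against 13.7 CPM) and Rasip1 (12.2 against 14.8 CPM) lay within 2-fold, whereas Palmd (71.3 against 24.6 CPM, a ratio of 1.54) and S1pr1 did not. Cgnl1, a junction protein, had 3.17 against 0.771 CPM, a ratio of 2.04 (1.32 to 2.85). S1pr1, a sphingosine phosphate receptor that neural progenitors and glia also express, had 63.3 against 3.45 CPM, a ratio of 4.20 (3.87 to 4.55), and Clec14a, a lectin of endothelium, 4.20 against 0.408 CPM, a ratio of 3.36 (2.41 to 4.51). Cdh5, the cadherin of endothelial junctions, had 94 and 59 reads (1.83 and 2.68 CPM), a ratio of -0.55 (-1.03 to -0.06). Cdh5 and Clec14a, both markers of endothelium, thus lay on opposite sides.

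Angiogenic signalling genes beyond those above numbered 16, of which 13 passed 1 CPM. None of the 13 was 2-fold or more higher in the cortex (15.6% of all genes) and 4 were 2-fold or more higher in the SVZ (20.0%). Among these 4, Nrp2 reached 1 CPM only in the SVZ. The median log2 ratio of the 13 was -0.02. Nrp1, a co-receptor for VEGF and semaphorins that neurons express widely, had 503 against 158 CPM, a ratio of 1.67 (1.62 to 1.72). Nrp2, a related co-receptor, had 9.08 against 0.454 CPM, a ratio of 4.32 (3.43 to 5.39). Ephb4, the ephrin receptor of veins, had 7.52 against 1.36 CPM, a ratio of 2.47 (1.93 to 3.05). Efnb2, the arterial partner of Ephb4, was within 2-fold, at 190 against 223 CPM. On the cortex side, short of 2-fold, Aplnr, the apelin receptor, had 7.84 against 15.3 CPM, a ratio of -0.97 (-1.18 to -0.76). Its ligand Apln, given above, lay on the SVZ side.

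Further barrier genes, 19 in number and each above 1 CPM, were spread to both sides, with a median log2 ratio of 0.05. Past 2-fold were 3 in the SVZ (20.0% of all genes) and 4 in the cortex (15.6%). Barrier transporters stayed within 2-fold, among them Abcg2 (28.6 against 35.3 CPM), Slc16a1 (35.6 against 40.1 CPM), Tfrc (49.2 against 51.7 CPM) and Slc38a5 (27.6 against 18.7 CPM). The Wnt ligands that instruct the barrier were placed apart. Wnt7b had 19.4 against 75.9 CPM, a ratio of -1.97 (-2.08 to -1.85), and Wnt7a 17.4 against 9.52 CPM, a ratio of 0.87 (0.65 to 1.09). Reck, which with Adgra2 forms the receptor complex for these ligands, had 6.67 against 2.49 CPM, a ratio of 1.42 (1.00 to 1.86), and Adgra2 itself 42.8 against 32.4 CPM, a ratio of 0.40 (0.28 to 0.53). Fzd4, a Frizzled receptor of the pathway, lay on the cortex side with 0.389 against 1.68 CPM, a ratio of -2.11 (-2.97 to -1.29), as did the Wnt inhibitor Apcdd1 with 9.90 against 28.1 CPM, a ratio of -1.50 (-1.68 to -1.33). Spock2, a matrix proteoglycan, had 1.24 against 5.44 CPM, a ratio of -2.13 (-2.59 to -1.68).

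Of 15 further mural genes, 7 passed 1 CPM, with a median log2 ratio of 0.52. Of the 7, 2 were 2-fold or more higher in the SVZ (20.0% of all genes) and 0 in the cortex (15.6%). The SVZ level was the higher for 5 of the 7 and the cortex level for 2. Kcnj8, the channel pore that pairs with Abcc9, had 10.2 against 6.53 CPM, a ratio of 0.64 (0.37 to 0.92). Ndufa4l2 had 9.27 against 6.49 CPM, a ratio of 0.52 (0.24 to 0.80). The intervals of Mcam and Higd1b spanned 0, around ratios of 0.33 (-0.01 to 0.69) and -0.17 (-0.45 to 0.12). Notch3, a Notch receptor of mural cells that progenitors also carry, had 5.21 against 1.36 CPM, a ratio of 1.94 (1.39 to 2.53). Cspg4, the other gene past 2-fold, reached 1 CPM only in the SVZ. Smooth muscle markers were near absent at this depth, with 37 and 5 reads for Acta2, 0 and 1 for Myh11 and 0 in both for Cnn1. Among 14 genes of the response to low oxygen, a known driver of Vegfa and Slc2a1, 13 passed 1 CPM. They went to both sides, 2 past 2-fold in the SVZ (20.0% of all genes) and 3 in the cortex (15.6%), with a median of -0.29. Egln3, an oxygen-dependent hydroxylase, had 739 reads in the SVZ and 0 in the cortex, so it passed the minimum through the SVZ alone. With the 0 set at a floor of 3 reads its log2 ratio was 6.72, and its interval ran from 6.42 with no upper limit. Ndrg1, a stress-responsive gene, had 5.66 against 102 CPM, a ratio of -4.17 (-4.36 to -4.00).

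**Figure D4:**
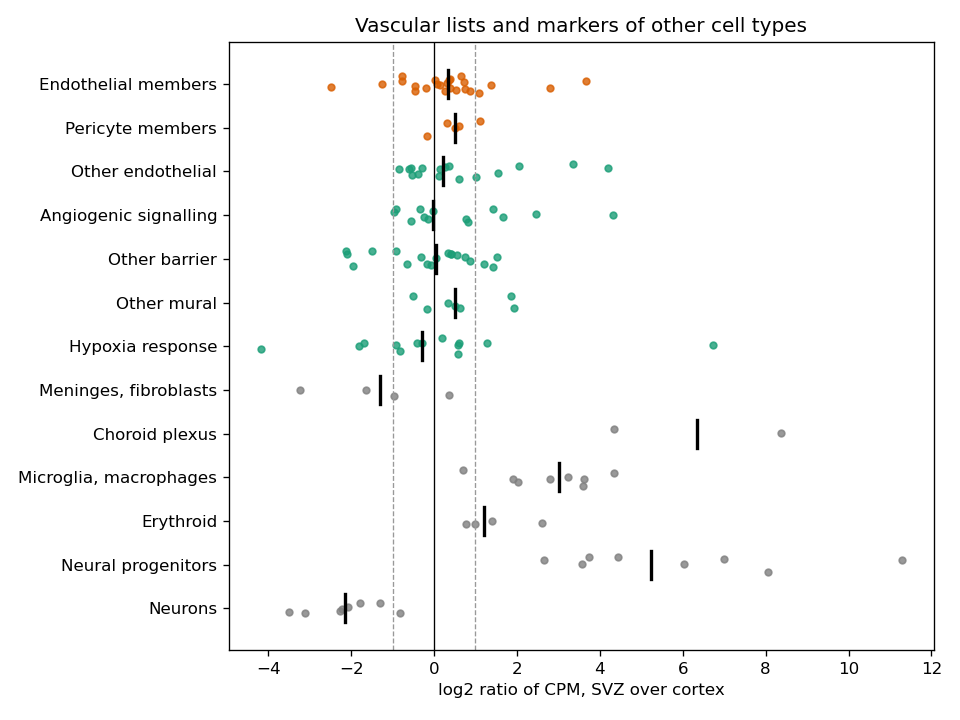
Log2 ratios of CPM, SVZ over cortex, for genes averaging 1 CPM or more in the vascular sets and in lists for other cell types, 1 point per gene, with a black bar at each median and dashed lines at 2-fold. The medians of the vascular and hypoxia lists lie between -0.29 and 0.52, against 5.23 for neural progenitors and -2.14 for neurons.

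Genes of blood cells and of macrophages were counted as well. Of 10 microglia and macrophage genes, which summed to 100 CPM against 30.9 CPM, 8 passed 1 CPM. Of the 8, 7 were 2-fold or more higher in the SVZ, against 20.0% of all genes. Among these, Cx3cr1, C1qa, C1qb, C1qc and Tmem119 reached 1 CPM only in the SVZ, the side on which they were called. Of 10 erythroid genes, which summed to 25.8 against 12.3 CPM, 4 passed 1 CPM. Of the 4, 2 were past 2-fold towards the SVZ (20.0% of all genes), Hba-x and Slc4a1. Each of these reached 1 CPM only in the SVZ. Alas2, the haem synthesis enzyme of red cells, had 14.8 against 7.48 CPM. Hba-a1, Hba-a2, Hbb-bs and Hbb-bt, globin genes with near-identical copies, were at 0 in both libraries. The part of blood left in the vessels in the levels of the vascular genes was not tested.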

How the data were processed

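Per the study's methods, adapters were removed with cutadapt 4.1 and read 1 was mapped to mm10 (Illumina iGenomes) with STAR 2.7.9a. The deposited files hold whole-number read counts per gene, not normalized, in 3 columns (unstranded and each strand). Reads that map to several places or overlap several genes are left out by STAR, and removal of duplicates is not given in the sources used here. A merged table with the authors' CPM, fold changes and their log10 was not used.

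Unstranded counts were divided by gene-assigned reads (CPM). No pseudocount entered the log2 ratios, and 0 reads were replaced by a floor of 3. Genes averaging 1 CPM or more were called at 2-fold. No test was made, with 1 library per area. Members, roles and lists were chosen with earlier results of these data known. All members are named. Genes of a further list could be named if among its 4 most read or at least 4-fold apart, and not all of these are. Flt4, Apcdd1, Slc6a13, Cdh5, Abcg2, Slc38a5, Reck, Tjp1, Foxq1, Wnt7a, Wnt7b, Notch3, Cspg4, Acta2, Myh11, Cnn1, Col1a1, Aldh1a2, Kl and the globins fall outside that rule and were chosen after their values were seen. Positions and lengths came from GENCODE M21 (GRCm38), found for 36 members, all protein coding. Alternatives used edgeR 4.0.16 and DESeq2 1.42.0 scaling. Python 3.11.15, scipy 1.17.1 and R 4.3.3 were used, and ratios and intervals were tested on simulated data.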

Additional observations from a re-analysis of the deposited data

How the results depend on the processing

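No paired analysis was possible because there is only 1 library of each area, and no replicate could be left out. Of 216 single-gene ratios recomputed (36 genes, 6 settings), 210 stayed inside the gene's counting interval, and no gene past 2-fold changed side. Those outside were Itm2a under TMM scaling and DESeq2 size factors and, with a pseudocount of 1 CPM, Sox18, Erg, Abcb1a (to 1.19) and Plvap (to -1.49). The numbers past 2-fold, 5 towards the SVZ and 2 towards the cortex, were 2 and 0 with a minimum of 10 CPM, and 2 and 1 both at 4-fold and when the whole interval had to pass 2-fold. They were 7 and 3 with no minimum. The endothelial sum ratio of 0.70 became 0.60 under TMM scaling and 0.60 under DESeq2 size factors, 0.88 without Vegfa, Slc2a1 and Ets1, 0.29 without the 4 most read members, 1.00 without the 4 most read in the cortex and 0.34 without Slco1c1, the last 3 being alternatives chosen after seeing the data. The pericyte ratio of 0.56 became 0.47 under TMM scaling and under DESeq2 size factors and 0.43 without Rgs5. The median over members ranged from 0.27 to 0.51. TMM scaling moved the median of all genes by -0.093, more than the lower bounds of Pecam1 (0.01) and Foxf2 (0.02). Depth limits the low genes most, such as Erg (1 cortex read) and Robo4 (4).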
